A study of Mus musculus with 6 samples.

Results

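The ectodysplasin pathway genes Eda, Edar, Edaradd, Eda2r and Tnfrsf19 were examined for H3K4me1 in the developing whisker pad. They are 5 of the 21755 protein-coding genes annotated on mouse chromosomes 1 to 19 and X, and they were chosen by name. A peak was assigned to a gene when it overlapped the gene body or the 5 kb on either side. Peaks up to 100 kb away were added where the nearest protein-coding start site belonged to that gene. In all, 13 of the 16788 peaks of replicate 1, 10 of the 12969 of replicate 2 and 12 of the 13998 of replicate 3 were assigned to these genes.

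H3K4me1, the monomethylated form of lysine 4 of histone H3, is found at active and poised enhancers. It was profiled by CUT&Tag (an antibody tethers a transposase to the mark and the DNA cut out there is sequenced) on wild-type whisker pads of the strain B6/J2 at embryonic day 12 (E12). The series holds 3 pads profiled with an antibody against H3K4me1 and 3 samples with control IgG that carry the same pad numbers. The pads numbered 1, 2 and 3 in the sample titles give replicates 1, 2 and 3. Without the IgG samples, which were not analysed here, the values have no background beside them, and with a single group no comparison between conditions could be made. Each pad was taken whole and dissociated, so the share of cells that carry the mark and the amount of the mark per cell cannot be told apart.

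Ectodysplasin is a ligand of the tumour necrosis factor (TNF) family that drives the formation of hair follicles, teeth and sweat glands, and Eda is the gene altered in the Tabby mouse. One of its splice forms binds the receptor Edar and another binds Eda2r. Edar passes the signal through its adaptor Edaradd to TRAF and TAB proteins and on to the transcription factor NF-kB. In the skin the pathway acts together with WNT signalling, whose nuclear effectors are LEF and TCF proteins. Tnfrsf19, also called Troy, is a receptor related to Edar and Eda2r that is also found in embryonic skin.

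Peaks were present over 2 of the 5 genes, Edar and Tnfrsf19, and these 2 carried them in all 3 replicates. Over all protein-coding genes, 24.9% had such a peak in replicate 1, 22.6% in replicate 2 and 19.6% in replicate 3, and 15.5% had one in every replicate, with 16.1% on the autosomes and 2.74% on chromosome X. Eda, Edaradd and Eda2r had no peak in any replicate, as did 71.2% of all protein-coding genes. Edar had 2 peaks in each replicate. Tnfrsf19 had 9, 6 and 8 peaks over its body in replicates 1, 2 and 3, and 2 further ones at a distance in each.

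The lists hold only the top 1% of signal blocks of each replicate, so a missing peak leaves the mark below that threshold and does not show its absence. The total signal of a peak is the fragment pileup summed over its bases, and the thresholds were 14265, 24247 and 19337 in replicates 1, 2 and 3. The pileup was not scaled to depth. Total signals are therefore given beside their percentile within the list of the same replicate. The source name of 4 samples, H3K4me1 replicates 2 and 3 among them, is adult kidney, whereas the titles of all 6 samples name the whisker pad. Of 10 facial mesenchyme markers 10 had a peak in each replicate, of 10 surface ectoderm markers 6, 6 and 4 did, and of 10 adult kidney markers 3, 3 and 2 did, in replicates 1, 2 and 3. The kidney counts were 30, 30 and 20% of that list, beside 24.9, 22.6 and 19.6% of all protein-coding genes. A whole pad holds both mesenchyme and the epithelium in which Edar acts, and the peaks do not say which of them a signal came from.

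**Figure D1:**
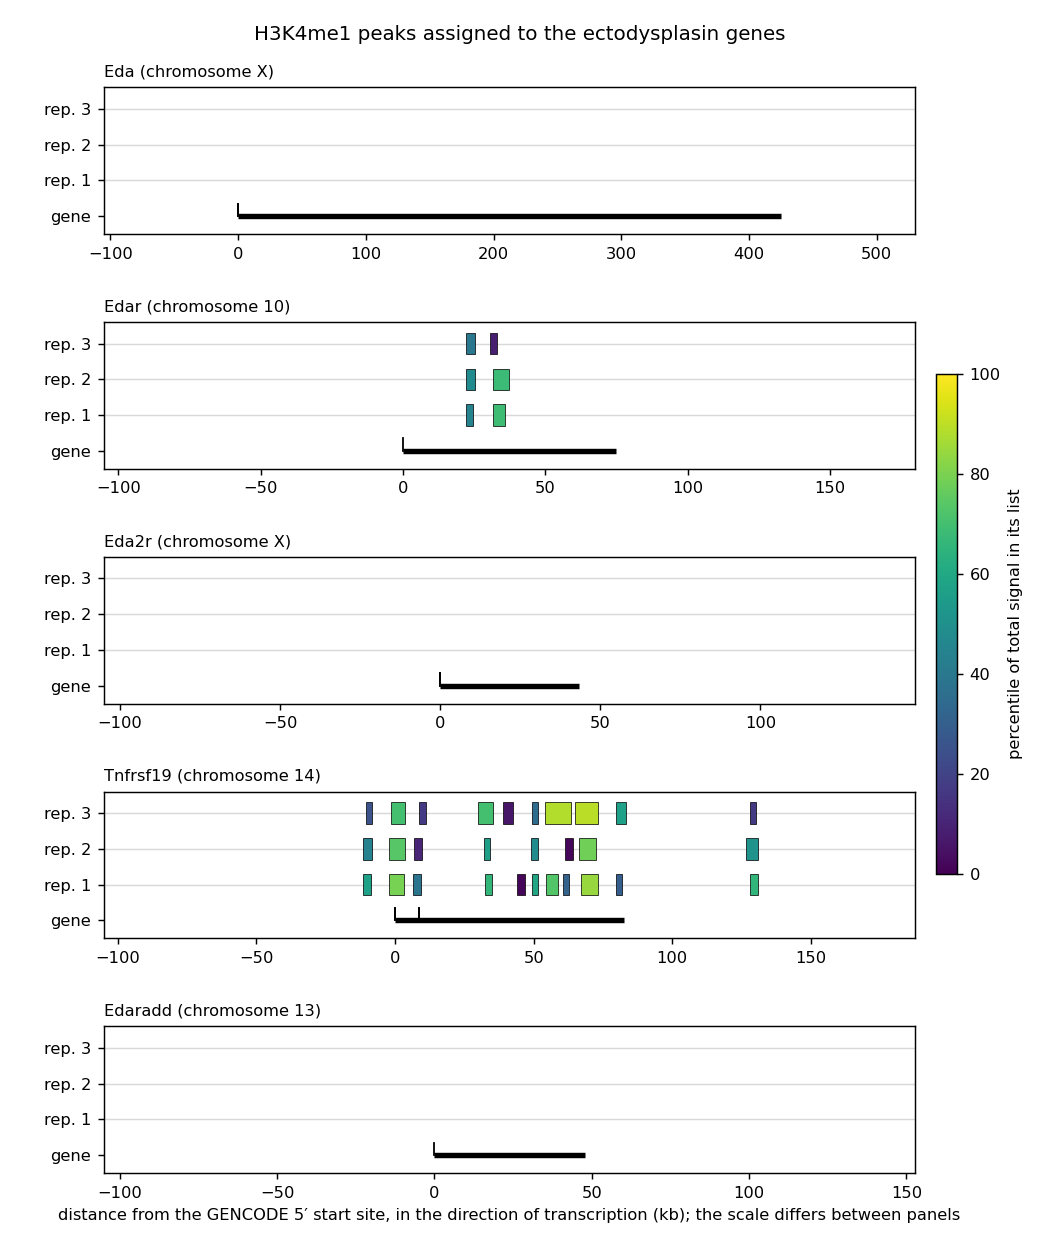
H3K4me1 peaks assigned to the ectodysplasin genes. Each panel is a gene, with its body as a black bar and its GENCODE start sites as ticks, and the x axis gives the distance in kb from the 5′ start in the direction of transcription. Boxes are the peaks of replicates 1, 2 and 3, coloured by the percentile of total signal in their list. The rows of Eda, Eda2r and Edaradd are empty, Edar has 2 peaks in each row, and Tnfrsf19 has 11, 8 and 10.

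Eda encodes the ligand and spans 425 kb of chromosome X, at chrX:99975606-100400762 on the plus strand of GRCm38. It is longer than 98.6% of protein-coding genes, and it had 0 peaks in replicates 1, 2 and 3. The closest peak lay upstream, 362 kb from the gene in replicate 1 and 361 kb in replicates 2 and 3. That peak was the same one in every replicate, and its nearest start site was that of Pja1.

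Among the 824 genes from 0.5 to 2 times the length of Eda, 54.1% had a peak in all 3 replicates and 28.4% had none in any. Of the 38 such genes on chromosome X, 78.9% had no peak in any replicate. The lists held 0.906, 0.637 and 0.859 peaks per Mb on chromosome X, against 6.75, 5.22 and 5.62 per Mb on the autosomes. The part of the chromosome in the empty row of Eda was not tested. The genes on either side of Eda, Tmem28 and Awat2, had 0 peaks in every replicate as well.

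Eda2r, the receptor for the other splice form of the ligand, lies on the same chromosome at chrX:97333840-97377216 on the minus strand, and had 0 peaks in each replicate. The closest peak was 1645 kb upstream in replicate 1 and 1648 kb upstream in replicates 2 and 3, with Stard8 as the gene of the nearest start site. Among 6665 genes of like length, from 0.5 to 2 times that of Eda2r, 69.6% had no peak in any replicate and 16.2% had one in each, and of the 240 of these on chromosome X 89.6% had none. The lack of a peak at Eda2r was thus shared with most genes of its length and chromosome.

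Edaradd encodes the adaptor that links the receptor to the NF-kB arm, at chr13:12472632-12520438 on the minus strand. It had 0 peaks in all 3 replicates, and 68.2% of the 6394 genes of like length had none in any, while 17.3% had one in each. Its chromosome carried 6.24, 4.75 and 5.99 peaks per Mb in replicates 1, 2 and 3, against 6.75, 5.22 and 5.62 on all autosomes. The closest peak was 182 kb upstream in replicate 1, towards Prl2c3, and 917 kb upstream in replicates 2 and 3, towards Nid1. Both neighbours, Lgals8 and Ero1lb, had 0 peaks in each replicate. The start sites of Eda, Eda2r and Edaradd in the RefSeq annotation also had no peak in any replicate.

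**Figure D2:**
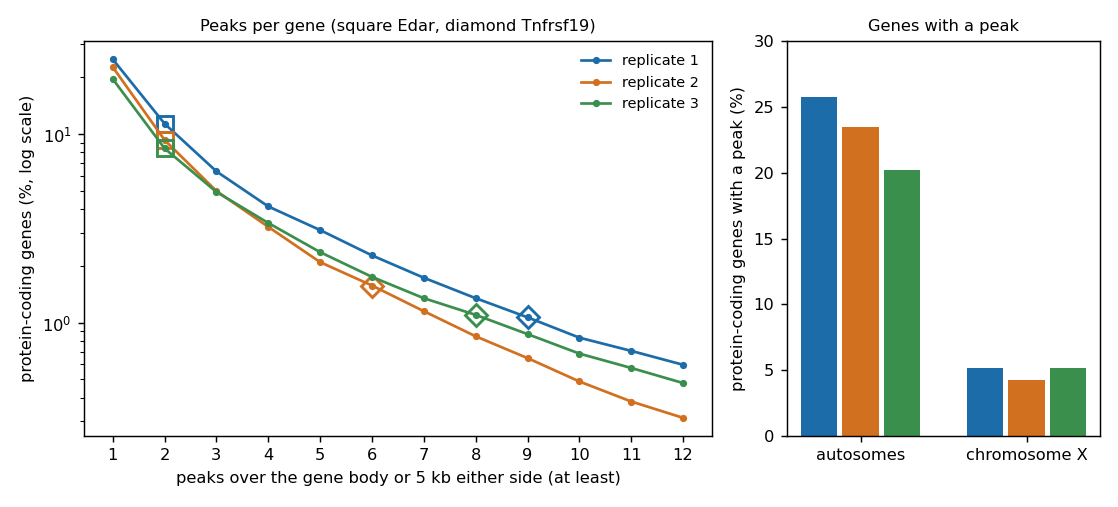
Peaks per protein-coding gene in replicates 1, 2 and 3. Left, the percent of genes (log scale) with at least the number of peaks on the x axis, with Edar as squares and Tnfrsf19 as diamonds, where 1.07, 1.57 and 1.10% of genes had as many peaks as Tnfrsf19. Right, the percent of genes with a peak, which was 25.8, 23.5 and 20.2% on the autosomes and 5.17, 4.22 and 5.17% on chromosome X.

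Edar, the receptor that marks placodes, lies at chr10:58600789-58675654 on the minus strand and is 74.9 kb long. Its 2 regions, here numbered from the 5′ end, were both in intron 1 of the GENCODE annotation and recurred in each replicate. Peaks covered 7.66, 10.4 and 6.56% of the gene with its flanks, a mean of 8.21 ± 1.98% (SD, n = 3). As many peaks or more were found in 11.3, 9.29 and 8.38% of all genes, and in 18.8, 15.5 and 14.6% of the 4956 genes of like length. Of the latter, 23.7% had a peak in every replicate and 60.2% had none in any. The annotated 5′ start had no peak in any replicate, and neither did the flanking genes Ccdc138 and Gm17542.

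Region 1 of Edar (chr10:58650336-58653548) began 22.2, 22.2 and 22.1 kb downstream of the 5′ start in replicates 1, 2 and 3. Its total signal was 25239, 43400 and 29861, at the 44.7, 48.0 and 39.6 percentile. The percentiles differed little between replicates, with a mean of 44.1 ± 4.23 (SD, n = 3), and put the region near the middle of each list. The 3 peaks shared 2549 bp.

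In RefSeq, 3 predicted Edar transcripts start within region 1, at positions 58653314, 58653317 and 58653319, and their first exon runs to 58651431. Those starts were under the peak in all 3 replicates. The curated RefSeq start at 58675696 and another predicted one at 58630129 were not under a peak in any. The stretch just before the internal starts is given to show what the peak covered there, and the RefSeq promoter at the 5′ start, which had no peak, is given beside it. Both read 5′ to 3′ on the minus strand of GRCm38. The internal stretch is chr10:58653320-58653439, 120 bases long, with its single CpG in capitals, and has a GC content of 50.8%. The promoter, chr10:58675647-58675946, runs from 250 bases before to 50 after the start, with a GC content of 58.7% and 14 CpGs, and the LEF/TCF letters CTTTGAT are in capitals.
Edar, before the internal starts: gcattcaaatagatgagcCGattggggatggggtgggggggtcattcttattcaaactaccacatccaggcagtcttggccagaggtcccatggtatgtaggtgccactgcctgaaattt
Edar, promoter at the 5′ start: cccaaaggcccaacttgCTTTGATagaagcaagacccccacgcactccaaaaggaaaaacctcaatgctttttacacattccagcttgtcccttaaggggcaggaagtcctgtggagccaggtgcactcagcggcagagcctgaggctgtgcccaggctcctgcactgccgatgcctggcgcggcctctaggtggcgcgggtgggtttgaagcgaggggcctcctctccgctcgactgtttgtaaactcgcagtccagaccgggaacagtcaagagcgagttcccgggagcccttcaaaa

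The LEF/TCF match in the Edar promoter lay 233 bases before the start. Searched on both strands, CTTTGAT was in 3.73% of 32851 RefSeq promoters of the same length. The stretch before the internal starts, of 120 bases against 300 in a promoter, held 0 matches, and the whole of Edar region 1 held 1. Of the promoters of the other members, one at the internal start of Tnfrsf19 held these letters, while those of Eda, Eda2r, Edaradd and the outer Tnfrsf19 start did not. A match is only a match of letters. This motif, and that of NF-kB given further on, were chosen after the sequences had been seen.

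Region 2 of Edar (chr10:58638265-58645000) lay deeper in the intron, beginning 31.7, 31.7 and 30.7 kb from the 5′ start. Its total signal was 41676 in replicate 1, 66149 in replicate 2 and 20963 in replicate 3, which placed it at the 68.8, 68.3 and 8.56 percentile. By total signal, replicates 1 and 2 had it among the stronger peaks. Replicate 3 had it close to the weakest one kept, at 1.08 times the minimum of that list. The peak was also shorter in replicate 3, at 2491 bp against 3922 and 5701 bp, and the 3 peaks shared 1408 bp. The mean pileup over its bases was 10.6, 11.6 and 8.42. The highest pileup lay at a different place in each replicate, over a span of 2672 bp.

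The highest pileup of replicate 2 in region 2 is shown with 60 bases on either side, at chr10:58643580-58643708 on the minus strand, with the bases of highest pileup in capitals.
Edar, region 2: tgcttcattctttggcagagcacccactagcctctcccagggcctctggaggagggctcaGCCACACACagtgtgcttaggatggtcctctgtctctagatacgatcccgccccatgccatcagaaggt

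Tnfrsf19 stood out among the members by the number of its peaks. The gene lies at chr14:60963875-61046490 on the minus strand and is 82.6 kb long. With the distant ones it had 11, 8 and 10 peaks, a mean of 9.67 ± 1.53 (SD, n = 3). Peaks covered 33.1, 23.9 and 42.6% of the gene with its flanks, a mean of 33.2 ± 9.35%. Over the body alone, as many peaks or more were found in 1.07, 1.57 and 1.10% of all protein-coding genes and in 0.945, 2.43 and 0.687% of the 4657 genes of like length. Of those, 25.6% had a peak in every replicate and 58.1% had none in any. Mipep, the neighbour past its 3′ end, had 2, 1 and 0 peaks.

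The single peaks of Tnfrsf19 were of ordinary strength. Their percentiles averaged 53.2, 45.4 and 47.4 in replicates 1, 2 and 3, or 48.7 ± 4.04 (SD, n = 3) over the replicates. The mean pileup over their bases was below that of the whole list in each replicate, at 13.5 against 16.6 in replicate 2, for example. Together they took 483, 402 and 613 millionths of the total signal of the lists, against 81.4, 111 and 68.3 millionths for Edar.

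The peaks of Tnfrsf19 merged into 11 regions. Peaks of all 3 replicates were in 8 of them, of 2 replicates in 1 and of a single replicate in 2. The regions are numbered from 5′ to 3′ here. Regions 1 and 11 were the distant ones, region 2 lay over the 5′ start, and the others were inside the gene. Region 5 was seen in replicate 3 only, at the 5.70 percentile, and region 6 in replicate 1 only, at the 1.24 percentile. Both were near the minimum of their list.

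**Figure D3:**
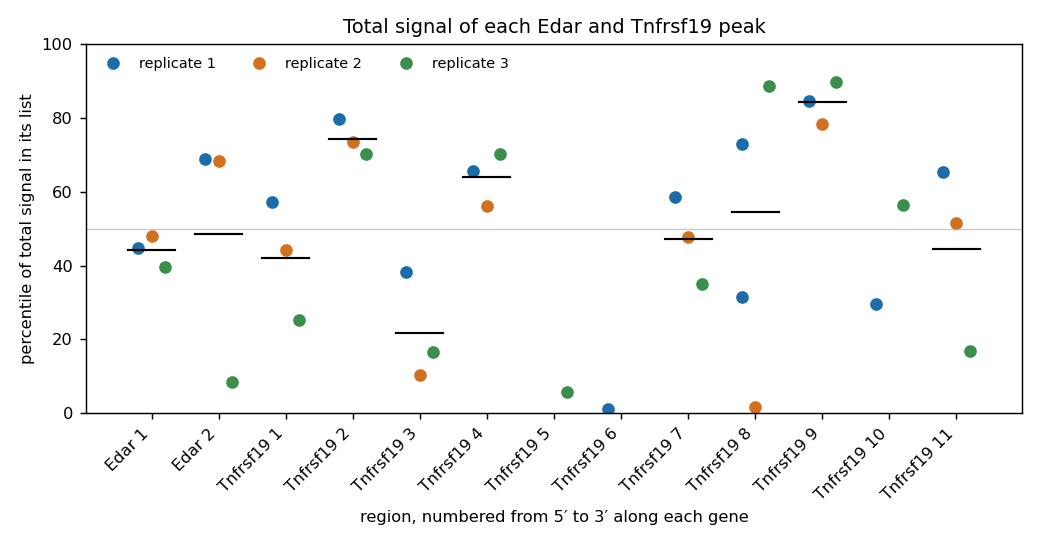
Percentile of total signal of each assigned peak within its list (y axis) for the regions of Edar and Tnfrsf19 (x axis), with a point per peak coloured by replicate. Black lines are means over 3 replicates for regions with a peak in each, taking the stronger peak where a replicate has 2. Tnfrsf19 region 9 lies highest in each replicate, and Edar region 2 and Tnfrsf19 region 8 spread most.

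Region 2 of Tnfrsf19 (chr14:61042890-61048809) covered the 5′ start in all 3 replicates. Of all protein-coding start sites 2.98% were under a peak in every replicate, with 7.02, 8.03 and 3.84% under a peak in replicates 1, 2 and 3. Its total signal was 58550, 76532 and 51346, at the 79.6, 73.5 and 70.1 percentile. The replicates were close together, with a mean of 74.4 ± 4.83 (SD, n = 3). Relative to the GENCODE start, the highest pileup was at -193, -164 and -193 bp, and these places fell within 29 bp of each other. The curated RefSeq start lies farther upstream, at 61046855. Its first exon, 61046115-61046855, holds these places, so they are downstream of that start.

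Region 3 (chr14:61035184-61039962) lay over a second, internal group of start sites. The peak covered these starts in replicates 1 and 2 and began 84 bp downstream of the nearer one in replicate 3. Its total signal was 22686, 26726 and 22764, and its percentile was 38.4, 10.3 and 16.7. It was the weakest region of the gene among those with a peak in every replicate, at a mean of 21.8 ± 14.7 (SD, n = 3). In replicates 1 and 2, where it covered the internal starts, its percentile was below that of the peak over the outer start. A predicted noncoding RNA, Gm41167, starts on the other strand at the same place, and the mark cannot be assigned to either.

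The RefSeq promoters of both Tnfrsf19 starts are shown since each lay under a peak, on the minus strand of GRCm38 and from 250 bases before to 50 after the start. The outer one is chr14:61046806-61047105, covered whole in 3 replicates, with a GC content of 51.0% and 14 CpGs. It is placed on the RefSeq start at 61046855 and does not hold the places of highest pileup of region 2. The internal one is chr14:61037938-61038237, covered whole in 2 replicates, with a GC content of 60.7% and 13 CpGs. Capitals mark the LEF/TCF letters, here read as ATCAAAG from the other strand, 202 bases before the internal start.
Tnfrsf19, outer promoter: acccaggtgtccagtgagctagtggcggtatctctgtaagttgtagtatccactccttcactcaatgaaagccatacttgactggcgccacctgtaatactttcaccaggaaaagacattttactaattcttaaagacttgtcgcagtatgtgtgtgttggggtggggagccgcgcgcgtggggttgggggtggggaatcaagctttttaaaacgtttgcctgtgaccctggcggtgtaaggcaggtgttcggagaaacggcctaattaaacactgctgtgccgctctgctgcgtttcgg
Tnfrsf19, internal promoter: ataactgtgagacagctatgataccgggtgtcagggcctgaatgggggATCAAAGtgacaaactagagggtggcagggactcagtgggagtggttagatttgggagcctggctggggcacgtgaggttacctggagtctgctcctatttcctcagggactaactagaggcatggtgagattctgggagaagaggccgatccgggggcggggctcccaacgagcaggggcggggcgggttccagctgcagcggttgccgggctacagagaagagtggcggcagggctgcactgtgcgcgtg

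Region 1 of Tnfrsf19 (chr14:61054662-61058049) lay upstream, with the highest pileup at -10.3 kb from the 5′ start in replicates 1 and 2. Its total signal was 31828, 40767 and 24962, at the 57.1, 44.2 and 25.2 percentile. Replicate 3 was lowest here too. RefSeq places the predicted start of a noncoding RNA, Gm41168, at 61056762, 12 bp from that highest pileup. In GENCODE Gm41168 instead spans chr14:61037960-61076802 on the plus strand and starts 10 bp from the internal Tnfrsf19 start, so the peaks of regions 1 to 3 cannot be assigned to one of these genes alone.

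**Figure D4:**
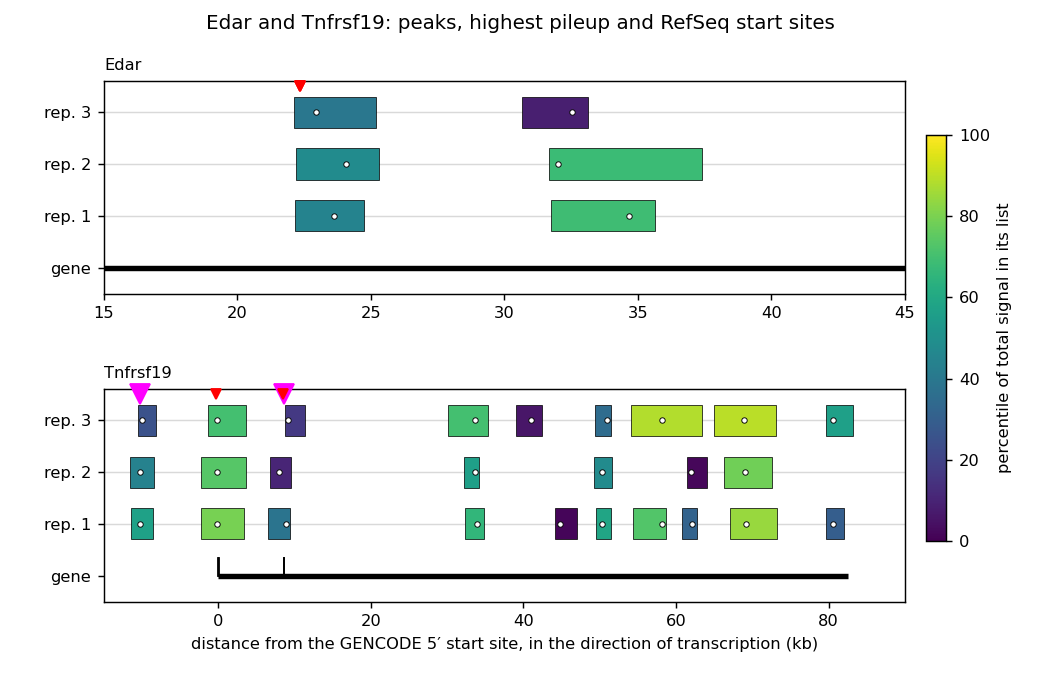
Peaks of Edar from 15 to 45 kb and of Tnfrsf19 from 15 kb upstream to 90 kb downstream of the GENCODE 5′ start (x axis, kb in the direction of transcription). Boxes are peaks coloured by percentile, white points the highest pileup, ticks GENCODE starts, and triangles RefSeq starts under a peak (red for the gene itself, magenta for a noncoding neighbour). The white points of Tnfrsf19 region 2 fall on a common line, within 29 bp, and those of Edar region 2 spread over 2672 bp.

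Within the gene body, 5 regions carried a peak in each replicate, namely regions 3, 4, 7, 8 and 9. Region 4 (chr14:61011109-61016436), in intron 3, had a total signal of 38675, 50182 and 51500 and stood at the 65.7, 56.0 and 70.3 percentile. Its peaks were 2530, 2066 and 5328 bp long. In signal per base, which is total signal divided by length, they stood at the 83.9, 91.7 and 33.7 percentile. Region 7 (chr14:60994830-60997293), in intron 5, had 32883, 43145 and 28031 and stood at the 58.7, 47.7 and 35.0 percentile. The highest pileup of region 7 was on the same 4 bases in replicates 1 and 2, and 686 bp away in replicate 3.

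Region 9 (chr14:60973260-60981493), also in intron 5, had the highest total signal of the gene in every replicate. Its total signal was 72101, 88564 and 100456, at the 84.6, 78.2 and 89.7 percentile, with a mean of 84.2 ± 5.76 (SD, n = 3). The peaks were 6120, 6254 and 8140 bp long and shared 5472 bp, and their highest pileups lay within 208 bp of each other, 69.1, 69.1 and 68.9 kb from the 5′ start. This order is one of total signal, which grows with length. The maximum signal was higher over the 5′ start in replicates 1 and 2, at 64 and 72 against 51 and 54 in region 9, and 36 against 41 in replicate 3. In signal per base, region 7 had a mean percentile of 78.8 ± 7.05 and region 9 one of 62.0 ± 4.50 (SD, n = 3).

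Region 8 (chr14:60982417-60992410), next to it, was the least alike between replicates in percentile of total signal. Replicate 1 had 2 peaks there, at the 31.6 and 73.0 percentile. Replicate 2 had a single peak over the part farther from the start, at the 1.70 percentile and 1.02 times the minimum of its list. Replicate 3 had a single peak of 9390 bp over the whole region, at the 88.5 percentile and with a total signal of 94793. The mean pileup over the peaks was 10.4 and 10.9 in replicate 1, 9.36 in replicate 2 and 10.1 in replicate 3. The replicates differed in the length called, at 2630 bp in replicate 2 against 9390 bp in replicate 3. Signal below the threshold is in neither sum. They also differed in signal per base, with percentiles of 54.6 and 59.1 in replicate 1, 15.9 in replicate 2 and 39.0 in replicate 3.

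Region 10, over the last exon, was seen in replicates 1 and 3, at the 29.5 and 56.3 percentile. Region 11 (chr14:60915644-60919815) lay 45.5 kb past the 3′ end by its closest edge in replicate 1, with total signals of 38340, 45959 and 22779 at the 65.4, 51.5 and 16.8 percentile. It was counted for Tnfrsf19 because no protein-coding start site was closer, although the 3′ end of Mipep is nearer to it than that of Tnfrsf19.

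The places of highest pileup in the intronic regions are shown with 60 bases on either side, since these regions held the peaks of highest total signal and the greatest difference in called length between replicates. They are read on the minus strand of GRCm38, with the bases of highest pileup in capitals. The coordinates are chr14:61012782-61012904 for region 4, chr14:60996130-60996253 for region 7, chr14:60988299-60988419 for region 8 and chr14:60977333-60977461 for region 9.
Tnfrsf19, region 4: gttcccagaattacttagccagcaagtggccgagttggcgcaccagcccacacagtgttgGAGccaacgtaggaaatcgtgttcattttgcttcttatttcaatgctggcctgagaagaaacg
Tnfrsf19, region 7: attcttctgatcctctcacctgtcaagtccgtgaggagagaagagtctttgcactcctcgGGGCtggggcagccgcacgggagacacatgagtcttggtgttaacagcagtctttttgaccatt
Tnfrsf19, region 8: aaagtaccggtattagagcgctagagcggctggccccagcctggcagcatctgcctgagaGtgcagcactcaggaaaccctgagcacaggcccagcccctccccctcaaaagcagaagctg
Tnfrsf19, region 9: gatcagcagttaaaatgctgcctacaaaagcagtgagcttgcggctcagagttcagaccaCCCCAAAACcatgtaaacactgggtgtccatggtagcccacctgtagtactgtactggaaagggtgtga

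None of these windows, nor that of Edar region 2, held the LEF/TCF letters, and 1.38% of 9339 windows with 60 bases on either side of a highest pileup did. Over whole regions present in all replicates, CTTTGAT was in 7 of the 8 Tnfrsf19 regions and 1 of the 2 Edar regions, against 57.1% of 8916 regions. Per kb this came to 0.316 matches for Tnfrsf19, 0.101 for Edar and 0.160 for all regions. For NF-kB, a match was GGG followed by any 5 bases and CC, on either strand, a loose pattern that was in 50.8% of promoters and 22.6% of windows. It was in 8 of 8 Tnfrsf19 regions, 2 of 2 Edar regions and 98.4% of all regions, with 1.29 matches per kb for Tnfrsf19, 1.51 for Edar and 1.86 for all. In these counts, which were not matched for base composition, both genes had fewer NF-kB matches per kb than all regions. For LEF/TCF Tnfrsf19 had more and Edar fewer, the latter from 1 match in all. No letters in a window say whether a factor binds there.

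The share of signal in replicate 3 relative to replicate 2 moved with base composition over the genome, and the members were set beside this. Regions present in all replicates were split into 10 equal groups by GC content, and the share of signal in replicate 3 over that in replicate 2 was taken on the log2 scale. This share is a sum over the peaks called in each replicate and so moves with their length too. Its median fell from 0.98 in the group with a median GC of 41.4% to -0.84 in that with 54.5%. Tnfrsf19 regions 4 and 9, with a GC content of 44.1 and 44.8%, had log2 values of 0.50 and 0.65, against a median of 0.49 for their group. Region 3 had 0.23 against 0.18. Regions 1, 2 and 7 had -0.24, -0.11 and -0.16, each below the medians of their groups, which were 0.05, 0.34 and 0.18. Region 11 had -0.55 beside a group median of -0.09. Edar region 1, at 47.9%, had -0.07 against 0.05.

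For Edar region 2, at 49.1% GC, the log2 value was -1.19 with peaks of 2491 bp in replicate 3 and 5701 bp in replicate 2. For Tnfrsf19 region 8, at 46.3% GC, it was 2.41 with peaks of 9390 and 2630 bp. The peaks of Tnfrsf19 region 4 were 5328 bp in replicate 3 and 2066 bp in replicate 2, and those of region 11 were 1819 and 4172 bp. Called lengths this unequal set much of these ratios, so no distance from the medians is read from any of these regions. The part of base composition in the differences between replicates at these regions was not tested.

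**Figure D5:**
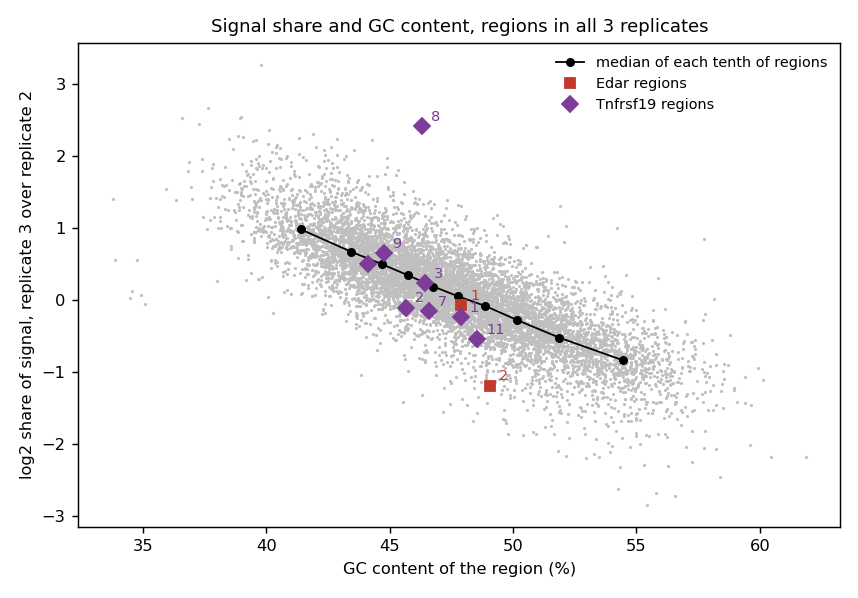
Share of signal in replicate 3 over that in replicate 2 (y axis, log2) against GC content (x axis, %) for the regions with a peak in all 3 replicates (grey points), with the medians of 10 groups of equal size in black. Squares are Edar and diamonds Tnfrsf19 regions with their numbers. The shares are sums over called peaks, which were of very unequal length in Edar region 2, at -1.19, and Tnfrsf19 region 8, at 2.41. Those of Tnfrsf19 regions 4 and 11 were unequal in length as well.

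The highest pileups of the member regions met between replicates in few cases. Over 10 regions with a peak in each replicate, they overlapped in 4 between replicates 1 and 2, 3 between replicates 1 and 3, and 2 between replicates 2 and 3. Over 7617 regions with 1 peak per replicate the shares were 25.3, 19.7 and 16.1%. Each window of highest pileup printed above was likewise that of 1 or 2 replicates.

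Downstream of the receptors, the NF-kB arm (TRAF and TAB adaptors, kinases, inhibitors and NF-kB subunits) was represented by 19 genes. Of these 6, 5 and 4 had a peak in replicates 1, 2 and 3, and 4 had one in each replicate. These were 31.6, 26.3 and 21.1% of the list, near the 24.9, 22.6 and 19.6% of all protein-coding genes, with 21.1% against 15.5% in every replicate. The 4 genes were Traf6, the ubiquitin ligase that Edaradd recruits, Tab1, a partner of the kinase TAK1, Map3k14, the kinase of the alternative NF-kB route, and Nfkb1, which encodes an NF-kB subunit. Nfkb1 had 4, 4 and 5 peaks, the most of the list, and its strongest peak stood at the 80.6, 68.7 and 89.1 percentile. Traf6 and Tab1 had 1 peak in each replicate, and Map3k14 had 1, 2 and 1.

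Genes known as targets of Edar signalling made a list of 12, of which 11 were found in the annotation as protein-coding. Of these 7, 5 and 3 had a peak in replicates 1, 2 and 3, and the 3 with a peak in each were Wnt10a, Pthlh and Ccn2. The shares were 63.6, 45.5 and 27.3%, with 27.3% in every replicate, against 24.9, 22.6 and 19.6% of all protein-coding genes and 15.5% in every replicate. Wnt10a, a WNT ligand of placodes, had 3, 2 and 2 peaks, with the strongest at the 92.2, 95.4 and 73.6 percentile, and its start lay under a peak in each replicate. Pthlh, a secreted peptide related to parathyroid hormone, had 1 peak in each, at the 68.1, 66.6 and 46.2 percentile. Ccn2, a matricellular protein, had 1 peak in each, at the 74.9, 52.4 and 84.6 percentile.

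As a single list, the 30 pathway genes below the receptors had a peak in 13, 10 and 7 cases. These were 43.3, 33.3 and 23.3% of the list, against 22.4 ± 2.67% (SD, n = 3) of all protein-coding genes. The list had the fewest in replicate 3, as did all genes. Its genes had a median length of 23.2 kb, against 17.4 kb over all genes. By list the median was 34.1 kb in the NF-kB arm and 6.66 kb in the targets, the list with the higher shares. The difference from all genes was not tested.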

How the data were processed

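CUT&Tag libraries for H3K4me1 were made from 3 wild-type E12 whisker pads. Per the study's methods and the submitters' processing notes, reads were handled with Bowtie2 2.3, SAMtools 0.1.19 and bedtools on mm10, and the authors called peaks in each replicate with SEACR 1.3 in stringent mode without IgG, keeping the top 1% of signal blocks. The treatment of duplicate reads is not given in the sources used here. The deposited lists give the total and maximum signal of each peak as summed and highest pileup, and 100% of both were whole numbers. Reads per library are not in the lists and their number is unknown here, so no intervals for counting error are given. Total signal in the lists was 822360552, 985881531 and 744342185.

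Coordinates are 1-based on GRCm38, the same build as mm10, and no peak ended beyond a chromosome. Genes and 54050 protein-coding start sites came from GENCODE M21, and promoters and further starts from RefSeq on the same build, where all 5 members matched. Peaks were counted as overlapping from 1 bp, and percentiles were taken within each list. Python 3.11.15, pandas 2.3.3, numpy 2.4.6 and pysam 0.24.0 were used, and the counting was tested on simulated data. No test between groups was possible, and values are means with SD over 3 replicates. Whether the pads came from separate embryos is not given in the sources used here.

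The members and lists were chosen with earlier results of these data known. Genes named were the members, pathway and TNF family genes with a peak in every replicate, the neighbours of a member, and for Edar and Tnfrsf19 the 2 genes most alike in the percent covered. Noncoding RNAs at Tnfrsf19 and the genes at the closest unassigned peaks were named after their positions were seen. Some neighbours are not reported here. Alternatives covered the flank, the reach, the start sites used, joined peaks, stricter peaks, stricter overlap, the signal measure ranked, and each replicate left out in turn.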

Additional observations from a re-analysis of the deposited data

How the results depend on the processing

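Of 91 values recomputed under alternatives for 9 results, 82 stayed close to the value reported and 9 did not, where close meant within 1 SD of the replicates for the mean percentile and within 1.5 times for the counts. Eda, Edaradd and Eda2r had 0 assigned peaks under each alternative run. Only a wider flank or a longer reach could in principle have given them a peak, because the other alternatives narrowed the rule or removed, joined or left out peaks. The flank and reach that were run could not do so either. The closest peaks lay more than 361 kb from Eda and 1645 kb from Eda2r, beyond both settings. For Edaradd the closest peak was 182 kb away in replicate 1, with its nearest start site at Prl2c3, and 917 kb away in replicates 2 and 3. The zeros of Eda, Edaradd and Eda2r were thus set by these distances and do not test the result. They are among the 82 values that stayed close, so that count says little about these genes. With the strongest 10000 peaks of each list, regions with a peak in all replicates fell from 10 to 5 and the mean for Tnfrsf19 to 6.33 peaks. With the stronger 50%, member genes with a peak in all replicates came to 1, which was Tnfrsf19, regions to 3, the mean percentile to 39.7, pathway genes to 5.67, Tnfrsf19 to 5.33 and Edar to 0.667 peaks. That percentile was ranked anew within the shortened lists, so it is not on the scale of the percentiles given above and shows no loss of signal. An overlap of at least 50% of both peaks left 5 regions. Leaving out 1 replicate gave 2 member genes in each case, 10 to 11 regions, a mean percentile from 45.7 to 50.8 and 8.50 to 11.5 pathway genes. Genes and regions then needed a peak only in the lists that remained, an easier rule under which the count of member genes could not fall. No paired analysis was possible because there was a single group of peak lists. The IgG samples, which share the replicate numbers, were not analysed here. Lists cut at a fixed share of blocks limit what a missing peak can show, and only 3 replicates measure the spread.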

Other observations

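Other receptors of the TNF family, a list of 22 genes, had a peak in 8, 8 and 4 cases in replicates 1, 2 and 3, and 3 genes had one in every replicate. These were 36.4, 36.4 and 18.2% of the list and 13.6% in every replicate, against 24.9, 22.6 and 19.6% of all protein-coding genes and 15.5% in every replicate. The 3 genes were Ngfr, the neurotrophin receptor p75, Tnfrsf1a, the main receptor for TNF, and Tnfrsf14, a receptor of lymphocytes. Ngfr had a single peak in each replicate, at the 99.7, 99.6 and 99.4 percentile, which covered its start and 78.0, 78.4 and 70.1% of the gene with its flanks. The strongest peak of Tnfrsf1a was at the 93.1, 93.8 and 89.3 percentile. Tnfrsf19 had more peaks than these 3 receptors, with 9, 6 and 8 over its body, but none was above the 89.7 percentile. It is also longer, at 82.6 kb against 18.9 kb for Ngfr, 13.1 kb for Tnfrsf1a and 6.63 kb for Tnfrsf14. Of 16 other TNF ligands, 3, 1 and 1 had a peak, or 18.8, 6.25 and 6.25%, below the shares of all genes, and Tnfsf15 alone had one in each replicate.

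By the percent of the gene and its flanks covered by peaks in the 3 replicates, the genes most like Edar, with 7.66, 10.4 and 6.56%, were Chd4 with 7.79, 10.7 and 7.27% and Bcap31 with 8.02, 10.1 and 7.31%. Those most like Tnfrsf19, with 33.1, 23.9 and 42.6%, were Runx1t1 with 34.5, 28.9 and 47.1% and Ier2 with 38.3, 18.3 and 42.5%. The Euclidean distances were 0.797 and 0.895 percentage points for the first pair and 6.88 and 7.62 for the second, over 3 replicates. Runx1t1 had 11, 7 and 9 peaks, a number close to that of Tnfrsf19. Ier2 had 1, 1 and 2 peaks and is 1.52 kb long, so most of the span behind its percent is flank.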
